A study of Mus musculus with 36 samples.

Results

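Described here are 4 genes of the NR1 subfamily of nuclear receptors in the mouse cochlea. Nr1d1 and Nr1d2 encode the receptors REV-ERB alpha and REV-ERB beta, and Rora and Rorb encode ROR alpha and ROR beta. They were chosen by name, as REV-ERB and ROR genes in a count table of 39017 Ensembl genes, and the 4 of 4 passed the filter on low counts, which kept 22556 genes. Cochlear RNA came from CBA/Sca mice aged 12 weeks that had been sham operated or adrenalectomized (ADX), an operation that removes the main source of corticosterone. The cochleae were collected at circadian times (CT) 04, 08, 12, 16, 20 and 24, with 3 libraries per time and status, which gave 12 groups and 36 libraries. Every group shared the strain, age and tissue, and neither the lighting before collection nor hormone levels were used here. Nothing in the labels ties the libraries of a group to separate animals. Each p-value below therefore reflects only how far these samples scatter, which may be technical.

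REV-ERB and ROR receptors bind the same DNA element, which holds the letters AGGTCA after an A/T-rich stretch. ROR receptors activate transcription from it. REV-ERB receptors, whose ligand is heme, recruit the corepressor NCoR and the histone deacetylase HDAC3 and repress the same targets, of which Arntl, encoding the clock activator BMAL1, is the best known. CLOCK and BMAL1 in turn drive Nr1d1 and Nr1d2 through E-boxes, so the pair forms the second feedback loop of the circadian clock.

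The total count per library was 18999408 to 28995197 in sham and 20351081 to 28947793 in ADX. Markers of the labelled tissue were present in every library: Otof, a synaptic gene of hair cells, had a lowest value of 66.2 normalised counts (CPM, scaled to a common library size), Tecta, of the tectorial membrane, 12.13 CPM, and Coch, of spiral ligament fibrocytes, 3486 CPM. Markers of other tissues were present too. The summed CPM of 8 skeletal muscle genes was 96.7 to 132 in sham and 102 to 519 in ADX. Pvalb, also a gene of neurons, made up most of the lower sums, with a median of 105 CPM over the 36 libraries, while the others had medians of 0.46 (Tnnc2) to 5.94 CPM (Actn3) and Acta1 reached 151 CPM. The summed CPM of 5 pituitary genes was 1.45 to 1538 in sham and 1.53 to 165 in ADX, and that of 5 osteoblast genes 1091 to 3253 in sham and 933 to 1844 in ADX. Blood and marrow markers were present as well. The summed CPM of 4 erythroid genes was 7184 to 12506 in sham and 5038 to 10776 in ADX. That of 5 granulocyte genes was 3481 to 6006 in sham and 2702 to 5133 in ADX, and that of 5 B lymphocyte genes 753 to 1557 and 1141 to 2227. In bulk RNA, fewer cells of a type and less RNA per cell cannot be told apart.

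The upstream sequence of Nr1d1 and Nr1d2 is shown because these genes moved together over the day. The letters are RefSeq's for build GRCm38.p6 and run 5′ to 3′ on the gene's own strand up to the outermost annotated start. Capitals mark a match to the letters searched.
Nr1d1, chr11:98775378-98775627, minus strand: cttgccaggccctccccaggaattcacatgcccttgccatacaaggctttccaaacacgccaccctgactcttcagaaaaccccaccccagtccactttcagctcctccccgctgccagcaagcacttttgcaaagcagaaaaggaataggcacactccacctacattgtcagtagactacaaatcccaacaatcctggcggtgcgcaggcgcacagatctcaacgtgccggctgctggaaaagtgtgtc
Nr1d2, chr14:18239128-18239356, minus strand: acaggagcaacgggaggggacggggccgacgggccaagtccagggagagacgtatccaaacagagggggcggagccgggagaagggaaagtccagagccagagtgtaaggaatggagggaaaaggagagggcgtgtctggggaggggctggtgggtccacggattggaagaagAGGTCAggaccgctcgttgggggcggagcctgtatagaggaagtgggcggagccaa

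RefSeq windows existed for all 4 members, with 2 starts for Rorb. Both strands were searched for AGGTCA (the core of the ROR element), CACGTG (E-box), TTATGTAA or TTACGTAA (D-box) and AGAACA (the core of a glucocorticoid receptor site). The single match in the 5 windows was the AGGTCA in Nr1d2, which starts 77 bases before the RefSeq start. Among 32851 RefSeq windows cut to the same 229 bases, 12.995% held that motif. Over 250 bases the shares were 14.02% for AGGTCA, 6.02% for the E-box, 0.931% for the D-box and 16.08% for AGAACA. A window without a match says only that these letters are not in it.

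Nr1d1 lies on chromosome 11, 98767932 to 98775333, minus strand (GENCODE M21, build GRCm38, gene ENSMUSG00000020889). Its last exon overlaps that of Thra, the thyroid hormone receptor alpha gene on the other strand, by 263 exonic bases. Reads there cannot be assigned with certainty, since no source used here states whether counting used the strand. Over the 36 libraries Nr1d1 had 369 to 3991 counts, with a median of 1551.

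In sham cochleae Nr1d1 swung from a peak at CT08 to a trough at CT20. Normalised read counts in CPM, for replicates 1, 2 and 3 in turn, were 74.7, 83.0 and 101 at CT04, 195, 168 and 181 at CT08, and 140.4, 115 and 114 at CT12. They were 27.5, 18.6 and 23.4 at CT16, 15.25, 13.7 and 15.9 at CT20, and 36.2, 31.7 and 38.5 at CT24. Sorted by level, the 6 times ran CT20, CT16, CT24, CT04, CT12 and CT08, and no 2 neighbours in that order overlapped. The group means were 181 ± 13.8 CPM at CT08 and 14.9 ± 1.16 CPM at CT20 (SD, n = 3), an observed ratio of 12.13.

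In ADX cochleae the order of times was alike and the range narrower. Nr1d1 measured 81.6, 82.1 and 88.9 CPM at CT04, 119, 174 and 106 at CT08, and 141, 124 and 93.4 at CT12. Later values were 36.8, 40.0 and 27.8 CPM at CT16, 16.9, 39.1 and 22.0 at CT20, and 46.8, 32.5 and 29.6 at CT24. Here 3 of the 5 pairs of neighbouring levels overlapped, including CT12 with CT08. The means were 133 ± 35.9 CPM at CT08 and 26.0 ± 11.6 CPM at CT20 (SD, n = 3), a ratio of 5.11.

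Nr1d2 lies on chromosome 14, 18204054 to 18239127, minus strand (ENSMUSG00000021775), and had 1339 to 3737 counts per library. Its values in sham were 75.7, 80.3 and 93.1 CPM at CT04, 158, 134 and 146 at CT08, and 176, 151 and 159 at CT12. They then were 107, 76.4 and 85.3 CPM at CT16, 52.9, 56.6 and 54.1 at CT20, and 58.1, 58.0 and 60.4 at CT24. The highest mean, 162 ± 12.4 CPM at CT12, overlapped with that of CT08, and the lowest, 54.5 ± 1.87 CPM at CT20 (SD, n = 3), stood below every other time.

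Under ADX, Nr1d2 measured 108, 80.8 and 110.4 CPM at CT04, 127, 126 and 121 at CT08, and 169, 159 and 128 at CT12. It measured 106, 102 and 102 CPM at CT16, 61.4, 97.9 and 69.1 at CT20, and 82.5, 64.3 and 57.4 at CT24. The mean was again highest at CT12, 152 ± 21.02 CPM, and lowest at CT24, 68.1 ± 12.98 CPM (SD, n = 3). The libraries of CT20, CT24, CT04 and CT16 overlapped from each level to the next.

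**Figure D1:**
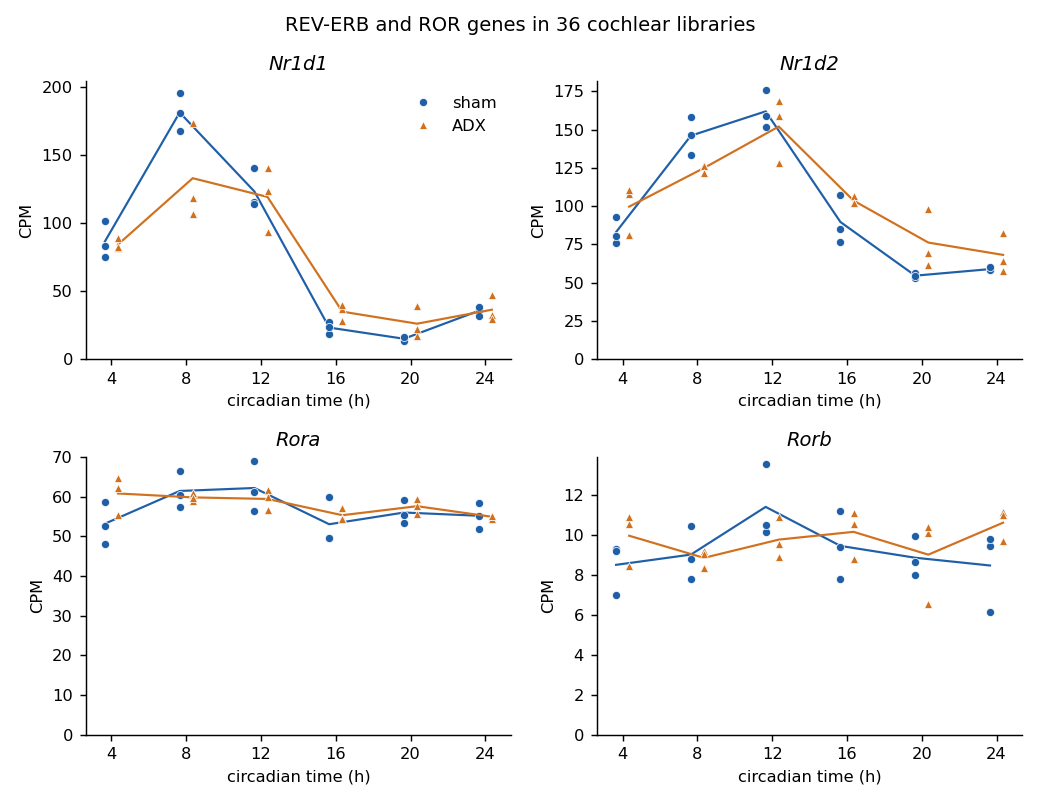
Normalised read counts (CPM, linear axes from 0) of Nr1d1, Nr1d2, Rora and Rorb against circadian time in hours, with 1 point per library, circles for sham and triangles for ADX, and lines through the group means. Nr1d1 and Nr1d2 swing over the day in both statuses, with sham means of 181 and 14.9 CPM at the extremes of Nr1d1, while the libraries of Rora stay between 48.2 and 69.0 CPM.

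A cosine of period 24 h was fitted for each status in edgeR's quasi-likelihood model over all 36 libraries. A rhythm was called in sham for 2 of the 4 members, Nr1d1 and Nr1d2, where 16.08% of tested genes were called. The same 2 were called in ADX, where 9.399% of tested genes were, and the same 2 for a rhythm shared by both statuses, where 32.50% were.

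The fitted peak-to-trough difference of Nr1d1 was 3.62 ± 0.22 on the log2 scale in sham (SE, adjusted p = 6.21e-13, edgeR), a fold of 12.25, and 2.58 ± 0.21 in ADX (adjusted p = 3.27e-09, edgeR), a fold of 5.98. By p-value its rhythm ranked 2 of 22556 genes in sham and 3 in ADX. For Nr1d2 the difference was 1.67 ± 0.12 in sham (adjusted p = 1.19e-11, edgeR), a fold of 3.18, and 1.10 ± 0.12 in ADX (adjusted p = 8.09e-07, edgeR), a fold of 2.14. These calls held under every alternative run, each library left out in turn included.

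Peak times kept their order in both statuses. The fitted maximum of Nr1d1 fell at 7.99 ± 0.22 h (sham) and 8.43 ± 0.31 h (ADX), and that of Nr1d2 at 10.2 ± 0.27 h and 10.6 ± 0.41 h (SE). The lag of Nr1d2 behind Nr1d1 was 2.21 h (sham) and 2.22 h (ADX). Peak times rest on the labelled times, and 30 of the 36 column names of the deposited table give a time 1 h earlier. With those times the difference between statuses was 0.41 h for Nr1d1 and 0.47 h for Nr1d2. With the labelled times it was 0.44 ± 0.38 h for Nr1d1 and 0.45 ± 0.49 h for Nr1d2 (SE, adjusted p = 0.995 for each, Wald test on the edgeR fit), so neither was called. It was 0.24 h for Nr1d1 without replicate 1 of ADX at CT12 or with the muscle score as a covariate, and 0.16 h for Nr1d2 without replicate 2 of ADX at CT20. Of the 1268 genes rhythmic in both statuses 0.07886% were, namely Angptl4, which is named here after its value was seen.

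Per length, the balance of the REV-ERB pair turned over in the day. With the deposited gene lengths, the ratio of Nr1d1 to Nr1d2 in sham was 1.88 ± 0.09 at CT04, 2.25 ± 0.02 at CT08 and 1.38 ± 0.08 at CT12. It was 0.467 ± 0.029 at CT16, 0.497 ± 0.052 at CT20 and 1.09 ± 0.09 at CT24 (SD, n = 3). In ADX the ratio was again above 1 in every library from CT04 to CT12, with means of 1.56, 1.92 and 1.41, and below 1 in every library at CT16 and CT20, with means of 0.609 and 0.600. At CT24 it was 0.959 ± 0.060 in ADX (SD, n = 3), with libraries from 0.915 to 1.03, against 0.991 to 1.16 in sham.

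Both rhythms were fitted smaller in ADX, and neither difference was called. For Nr1d1 the peak-to-trough value differed by -1.04 ± 0.30 log2 units, ADX minus sham (SE, 95% interval -1.63 to -0.44, unadjusted p = 0.00162, adjusted p = 0.9998, Wald test on the edgeR fit). For Nr1d2 it differed by -0.57 ± 0.17 (SE, interval -0.89 to -0.24, unadjusted p = 0.00155, adjusted p = 0.9998, same test). By this test 0.000% of 22556 genes were called and 466 had an unadjusted p under 0.05. The edgeR test of any difference in rhythm also called 0.000% of genes, with 805 at an unadjusted p under 0.05, and gave unadjusted p-values of 0.00497 for Nr1d1 and 0.0044 for Nr1d2. Limma-voom called 0 members in either test, and DESeq2, run for the difference in rhythm, 0.

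As a share of sham, the ADX peak-to-trough value was 71.4% for Nr1d1 and 65.9% for Nr1d2. The median over the 1268 genes rhythmic in both statuses was 92.7%, and 62.54% of those genes had a smaller value in ADX. With p-values adjusted over these 1268 genes alone, a choice made after seeing the data, the adjusted p for Nr1d1 and for Nr1d2 was 0.342 (edgeR), and Per2 was the gene called.

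**Figure D2:**
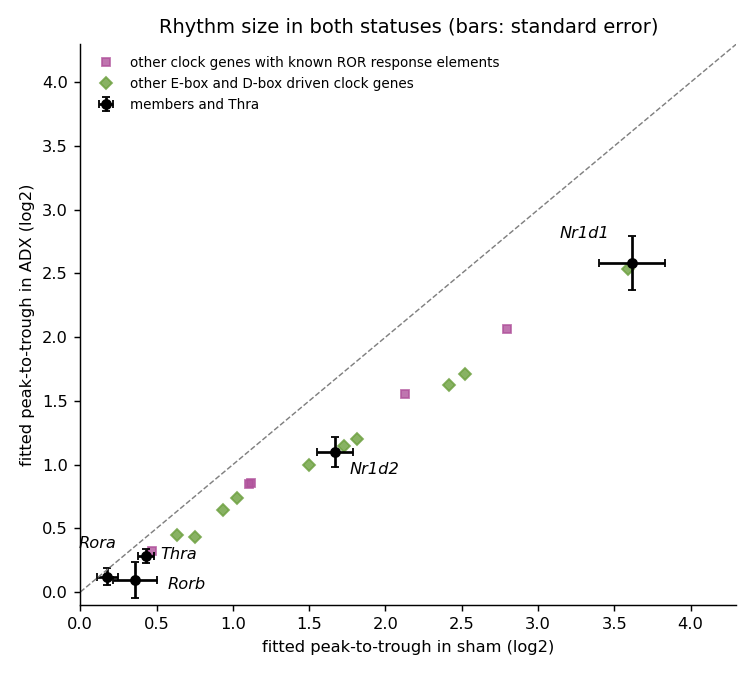
Fitted peak-to-trough difference in ADX (log2, vertical axis) against that in sham (log2, horizontal axis) for Nr1d1, Nr1d2, Rora, Rorb and Thra (black, bars are standard errors) and for the other clock genes of both lists (squares and diamonds), with a dashed line of equality. Nr1d1 lies at 3.62 and 2.58, Nr1d2 at 1.67 and 1.10, and every plotted gene lies below the line.

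Time by time, the fitted values of both REV-ERB genes were lower in ADX at CT08 and higher at CT16 and CT20. Nr1d2 was also higher at CT04, by 0.26 ± 0.14 log2 units, and at CT24, by 0.21 ± 0.14 (SE). None of these differences was called. At CT20, the time of the largest difference for each, Nr1d1 was 0.81 ± 0.24 log2 units higher in ADX (SE, unadjusted p = 0.00211, adjusted p = 0.18, edgeR) and Nr1d2 0.48 ± 0.14 (unadjusted p = 0.00229, adjusted p = 0.186, edgeR). Replicate 2 of ADX at CT20 carried much of it: without that library the differences were 0.37 and 0.25. The other 2 ADX libraries, at 16.9 and 22.0 CPM of Nr1d1, still lay above the highest sham library, at 15.9 CPM.

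At CT16 Nr1d1 differed by 0.58 ± 0.23 (unadjusted p = 0.0163, adjusted p = 0.563, edgeR), and at CT08 by -0.45 ± 0.21 (unadjusted p = 0.0408, adjusted p = 0.9999, edgeR). Of the 24 pairs of member and time, edgeR, DESeq2 and limma-voom each called 0, and 5 had an unadjusted p under 0.05 in edgeR, as did 6.70% of all pairs of gene and time. Over all genes 0.004433% were called at CT20, namely Gas2l2 (named after its value was seen), and 0.000% at each other time.

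The ADX and sham libraries did not overlap in 4 of the 24 pairs, as in 11.70% of all pairs of gene and time. All ADX libraries were higher for Nr1d1 at CT16, as for 7.098% of tested genes, and for Nr1d1 and Nr1d2 at CT20, as for 5.121%. All were lower for Nr1d2 at CT08, as for 3.928%.

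**Figure D3:**
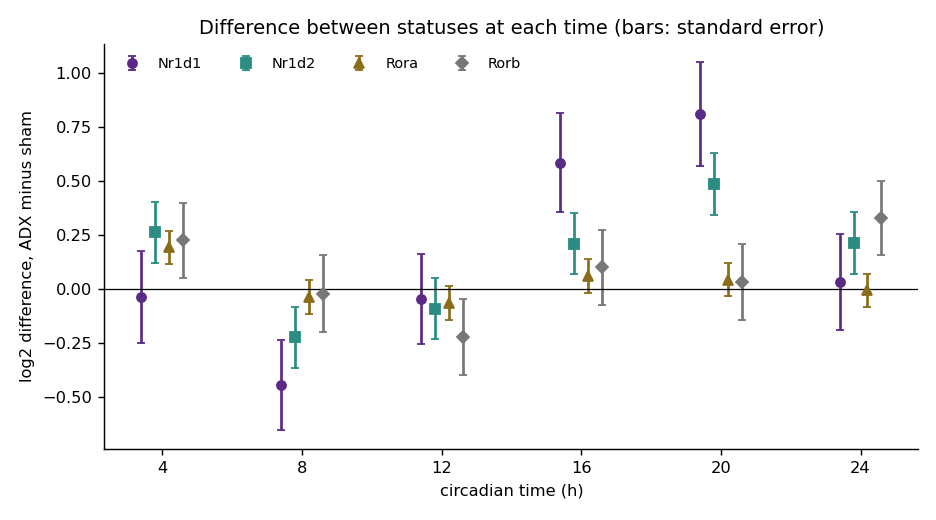
Fitted log2 difference, ADX minus sham, against circadian time in hours for each of the 4 genes, with bars of 1 standard error (3 libraries per group). Nr1d1 goes from -0.45 at CT08 to 0.81 at CT20 and Nr1d2 from -0.23 to 0.48, and the values of Rora lie between -0.07 and 0.19.

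Averaged over the day on the log2 scale, ADX minus sham was 0.15 ± 0.09 for Nr1d1 (SE, adjusted p = 0.442, edgeR) and 0.14 ± 0.06 for Nr1d2 (adjusted p = 0.221, edgeR). For Rora it was 0.03 ± 0.03 (adjusted p = 0.699) and for Rorb 0.07 ± 0.07 (adjusted p = 0.678, both edgeR). So 0 of 4 members were called, 1 had an unadjusted p under 0.05 (Nr1d2, 0.0213) as did 15.6% of tested genes, and 0.7182% of tested genes were called, a count of 162 that ranged from 6 to 630 under alternatives. The uncalled means moved with single libraries: Nr1d1 was at 0.07 without replicate 2 of ADX at CT20, Rora at 0.015 without replicate 1 of sham at CT04 and 0.019 without replicate 2 of sham at CT12, and Rorb at 0.04 without replicate 2 of sham at CT24. Without the 4 libraries of highest Gh, a pituitary gene, Rora was at 0.00013 and Rorb at 0.11. DESeq2 and limma-voom also called 0 of the 4. On the linear scale, where high times weigh more, the mean of Nr1d1 was lower in ADX, 72.3 against 77.4 CPM.

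For the REV-ERB genes, libraries of the same group lay farther apart in ADX than in sham. The pooled SD of log2 CPM around the group means was 0.185 in sham and 0.368 in ADX for Nr1d1, and 0.139 and 0.224 for Nr1d2 (12 degrees of freedom each, no test). The ratio of ADX to sham, 1.99 for Nr1d1 and 1.62 for Nr1d2, was exceeded by 1.53% and 5.67% of tested genes, whose median ratio was 0.969. Without replicate 2 of ADX at CT20 the ratios were 1.57 and 1.33. Rora went the other way, with 0.123 in sham and 0.0602 in ADX, a ratio of 0.490 that 1.56% of genes lay below.

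The deviations of Nr1d1 and Nr1d2 from their group means ran in step across the 36 libraries. Pearson's r was 0.80 (permutation p = 1e-05, the smallest that 100000 permutations within groups can give, adjusted p = 6e-05 over 6 pairs of members, two-sided) and Spearman's rho 0.75 (permutation p = 1e-05, adjusted p = 6e-05). Without the 2 libraries farthest from the median r was 0.71. Deviations of Nr1d2 and Rora also ran together, with r = 0.65 (permutation p = 5e-05, adjusted p = 0.00015) and rho = 0.71 (permutation p = 0.0001, adjusted p = 0.0003), and r = 0.74 without the 2 farthest. The 4 other pairs had r from 0.40 to 0.54 with adjusted permutation p of at most 0.0331. Pairs of other genes were not compared, so this co-movement is not shown to be particular to the members. Values of 1 library share its depth, scaling and tissue make-up.

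**Figure D4:**
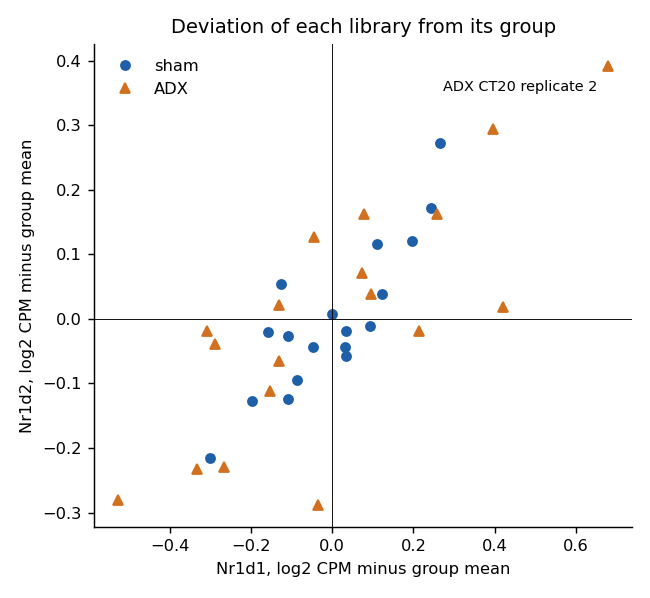
Deviation of each library from its group mean in log2 CPM, Nr1d2 (vertical) against Nr1d1 (horizontal), circles for sham and triangles for ADX. Replicate 2 of ADX at CT20 lies farthest out, at 0.68 for Nr1d1 and 0.39 for Nr1d2, and Pearson's r over the 36 libraries is 0.80.

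Rora spans 734 kb of chromosome 9, 68653786 to 69388246, plus strand (ENSMUSG00000032238), and had 1148 to 1746 counts per library. Its product ROR alpha is a constitutive activator that competes with REV-ERB at shared elements. Its group means lay between 53.1 ± 5.92 CPM (CT16) and 62.2 ± 6.41 CPM (CT12) for sham, and ran from 54.9 ± 0.39 CPM at CT24 to 60.8 ± 4.76 CPM at CT04 in ADX (SD, n = 3). Neighbouring levels overlapped in 5 of 5 cases in both statuses.

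Rora's fitted peak-to-trough difference was 0.18 ± 0.07 log2 units in sham (SE, adjusted p = 0.149, edgeR) and 0.12 ± 0.07 in ADX (adjusted p = 0.453, edgeR). The shared rhythm of Rora fell short of the threshold (adjusted p = 0.0652, edgeR). That call turned on small changes: the adjusted p was 0.0441 with a second cosine of 12 h and 0.0362 without the 2 libraries of highest osteoblast score. It was also passed without replicate 1 of sham at CT04 (0.0355), replicate 2 of sham at CT20 (0.0396) or replicate 3 of sham at CT24 (0.0488). The largest difference between statuses was 0.19 ± 0.08 at CT04 (unadjusted p = 0.0181, adjusted p = 0.424, edgeR), and 0.12 without replicate 1 of sham.

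Rorb lies on chromosome 19, 18930605 to 19111196, minus strand (ENSMUSG00000036192), and is known from retina and sensory neurons. It was the rarest member, with 142 to 323 counts per library. Group means lay between 8.46 ± 1.9997 CPM at CT24 and 11.4 ± 1.86 CPM at CT12 in sham, and between 8.85 ± 0.44 CPM at CT08 and 10.6 ± 0.80 CPM at CT24 in ADX (SD, n = 3). Neighbouring levels overlapped throughout. The peak-to-trough difference was 0.36 ± 0.14 log2 units in sham (SE, adjusted p = 0.161, edgeR) and 0.09 ± 0.14 in ADX (adjusted p = 0.901, edgeR), and the difference between them was -0.27, with an interval of -0.66 to 0.13. Without replicate 3 of ADX at CT20 the ADX value was 0.21 and the difference -0.15, and without the 3 libraries of highest muscle score they were 0.25 and -0.10. At CT24 Rorb differed by 0.33 ± 0.17 (adjusted p = 0.879, edgeR), and by 0.14 without replicate 2 of sham.

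Levels of different genes can be compared only per length. As RPKM (CPM per kilobase) with the deposited lengths, Nr1d1 averaged 44.2 ± 35.6 in sham and 41.3 ± 26.6 in ADX, Nr1d2 31.2 ± 13.6 and 32.8 ± 9.97, Rora 20.4 ± 2.004 and 20.8 ± 1.11, and Rorb 1.81 ± 0.33 and 1.90 ± 0.24 (SD, n = 18). The ranges of Nr1d1, Nr1d2 and Rora overlapped, and that of Rorb lay below them. At the sham trough of CT20 the order with these lengths was reversed, with Nr1d1 at 8.53 ± 0.66 RPKM, Nr1d2 at 17.2 ± 0.59 and Rora at 20.11 ± 1.02 (SD, n = 3).

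The choice of length mattered for Rora. With the length of all exons merged, its level was 4.35 RPKM in sham, against 20.4 RPKM with the deposited lengths. The means over the day kept the order Nr1d1, Nr1d2, Rora and Rorb under both lengths. The reversed order at CT20 in sham did not hold with merged exons, where Nr1d1 had 4.86 ± 0.38 RPKM, Nr1d2 10.08 ± 0.34 and Rora 4.29 ± 0.22 (SD, n = 3).

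Thra, on the strand opposite Nr1d1, had a rhythm of 0.43 ± 0.05 in sham and 0.28 ± 0.05 in ADX (SE, adjusted p = 4.82e-06 and 0.00263, edgeR), with peaks at 4.74 and 5.24 h.

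Clock genes with known ROR elements, the targets shared by both receptor groups, cycled in 6 of 6 cases in sham, in ADX and in the shared test. Arntl had a peak-to-trough difference of 2.13 ± 0.14 in sham and 1.56 ± 0.14 in ADX, peaking at 23.6 and 23.9 h. Npas2, a BMAL1 partner, had 2.79 ± 0.20 and 2.06 ± 0.20, peaking at 0.235 and 0.901 h. The repressor genes Cry1 and Nfil3 peaked at 17.3 and 20.6 h in sham. All 6 values were smaller in ADX, against 62.54% of genes rhythmic in both statuses. The medians of the 6 were 1.13 and 0.85, against 0.216 and 0.183 over all tested genes, and 0 differences were called.

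The clock genes driven through E-boxes and D-boxes, as Nr1d1 and Nr1d2 are, cycled in 10 of 10 cases in sham, in ADX and in the shared test. Dbp, encoding an activator at D-boxes, had 3.59 ± 0.25 in sham and 2.54 ± 0.24 in ADX (SE), and Tef, its relative, 1.496 ± 0.11 and 0.99 ± 0.11. The repressor gene Per2 had 2.42 ± 0.11 and 1.62 ± 0.11 and Per3 1.82 ± 0.14 and 1.1996 ± 0.14. Here 10 of 10 values were smaller in ADX, against 62.54% of genes rhythmic in both statuses. The medians of the 10 were 1.61 and 1.07, and 0 differences were called.

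The gene lists that follow are read against the shares of all tested genes given above, 16.08% with a rhythm in sham, 9.399% in ADX and 32.50% with a shared rhythm. Of 12 genes for corepressors of REV-ERB and coactivators of ROR, 9 had a shared rhythm, 6 passed in sham and 2 in ADX. Ncor1, the corepressor itself, had 0.19 ± 0.04 in sham and 0.11 ± 0.04 in ADX, and Hdac3 0.23 ± 0.05 and 0.12 ± 0.05 (SE). Neither was called in ADX alone (adjusted p = 0.133 for Ncor1 and 0.187 for Hdac3, edgeR). The acetyltransferase genes Crebbp and Ep300 had 0.15 ± 0.04 and 0.13 ± 0.04 in sham, and 0.18 ± 0.04 and 0.19 ± 0.04 in ADX. Ep300 was not called in sham alone (adjusted p = 0.0538, edgeR). Over all tested genes the median peak-to-trough values were 0.216 in sham and 0.183 in ADX. Among 9 genes of REV-ERB phosphorylation and turnover, 3 had a shared rhythm, a share near the 32.50% of all tested genes. They were the kinase genes Csnk1d (0.10 ± 0.03 in sham) and Csnk1e (0.14 ± 0.04), and the ubiquitin ligase gene Siah2. In sham alone Csnk1d passed and Csnk1e did not (adjusted p = 0.0696, edgeR). The mean peak-to-trough value of Siah2 over both statuses was 0.16 (adjusted p = 0.0354 for the shared rhythm, edgeR), and its call was lost in 15 of 36 fits with a single library left out (adjusted p up to 0.0742) and in 4 of 13 other alternatives (up to 0.165). Mycbp2, another ligase gene, had an adjusted p of 0.089.

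Of 13 genes for synthesis and breakdown of heme, the REV-ERB ligand, 2 had a shared rhythm, a share below the 32.50% of all tested genes, namely Hmox1, for heme oxygenase 1, with 0.85 ± 0.15 in sham and 0.66 ± 0.15 in ADX, and Uros, a synthesis enzyme gene, with 0.28 ± 0.08 and 0.11 ± 0.08 (SE). The shared call of Uros was lost in a test of any difference between times (adjusted p = 0.0905, edgeR). Uros was not called in ADX alone (adjusted p = 0.602, edgeR). Hmox2 and Urod had adjusted p-values of 0.051 and 0.108 (edgeR), and Hmox2 passed in 7 of 13 alternatives and in 10 of 36 fits with a library left out. In sham 3 passed and in ADX 1, and 13 of 13 had a smaller value in ADX, with 0 differences called. Of the 22556 tested genes 12820 had a smaller value in ADX. Genes of 1 pathway can move together, so the 13 may not be separate observations. The 4 erythroid marker genes summed to 7184 to 12506 CPM in sham and 5038 to 10776 CPM in ADX. The part of erythroid cells in the heme genes was not tested.

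Among 14 genes reported elsewhere as REV-ERB targets outside the clock, 6 had a shared rhythm, 4 in sham and 4 in ADX. Elovl3, among the 6 with a shared rhythm, averaged only 0.69 CPM. G6pc, Il6, Apoa1, Ccl2 and Apoc3, which were not called, averaged 0.31 to 0.57 CPM, so the lack of a call says little there. Lpl, for lipoprotein lipase, had 1.52 ± 0.12 in sham and 1.12 ± 0.12 in ADX with peaks at 1.42 and 1.56 h. The brain lipid binding protein gene Fabp7 had 0.996 ± 0.21 and 1.03 ± 0.21, and the hormone gene Fgf21 0.78 ± 0.24 and 0.84 ± 0.23 (SE). Fgf21 was not called in sham alone (adjusted p = 0.0612, edgeR).

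Among 15 other NR1 receptor genes, 6 had a shared rhythm, a share near the 32.50% of all tested genes, 5 passed in sham and 4 in ADX. Beside Thra, the vitamin D receptor gene Vdr had 0.68 ± 0.09 in sham and 0.40 ± 0.09 in ADX, and the oxysterol receptor gene Nr1h3 0.23 ± 0.06 and 0.24 ± 0.06 (SE). Of 10 genes known to be induced by glucocorticoids, 9 passed in sham, 4 in ADX and 9 in the shared test. Per1 had 1.73 ± 0.18 in sham and 1.15 ± 0.18 in ADX, Tsc22d3 1.27 ± 0.13 and 0.83 ± 0.13, Klf9 0.79 ± 0.11 and 0.42 ± 0.11, and Sgk1 0.51 ± 0.08 and 0.26 ± 0.08 (SE). Sgk1 was not called in ADX alone (adjusted p = 0.0691, edgeR). Again 0 differences in rhythm were called, and 1 gene of that list, Dusp1, was lower in mean level in ADX, by a log2 value of -0.23 (adjusted p = 0.0206, edgeR, named after its value was seen).

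The genes whose log2 CPM over the 36 libraries was most like that of each member were found among 17711 genes of at least 1 CPM. These correlations are descriptions, since the libraries share time and status. Nearest to Nr1d1 were Gstt2 (r = 0.93), Atp1a4 (0.92) and 2410002F23Rik (0.92), and most opposite the endoplasmic reticulum chaperone genes Calr, Hsp90b1 and Pdia3 (each -0.93), which peaked at 19.4, 19.29 and 19.6 h in sham. Nr1d2 was nearest to Dbp (0.97), Por (0.92) and Tspan4 (0.92) and most opposite to Arrdc4 (-0.92), Arntl (-0.91) and Foxs1 (-0.86). Rora was near to App (0.88) and Tshz2 (0.86) and opposite to Gdpd2 (-0.79), Mogs (-0.79) and Tlnrd1 (-0.78). Rorb had weaker matches, led by Fbxo22 (0.73), Gata3 and Rbbp9 (both 0.65), with Mir511 and Snx15 (both -0.59) among the most opposite.

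Within groups, the levels of Rora and Rorb moved with marker scores of some cell types. Each member was set against 13 marker scores, as deviations from group means over 36 libraries. Of these 52 relations 5 passed (adjusted permutation p under 0.05, two-sided), 3 for Rora, 2 for Rorb and 0 for Nr1d1 or Nr1d2. No such share was computed over all tested genes, so the 5 are not shown to be particular to Rora or Rorb. Rora fell as the erythroid score rose (r = -0.69, permutation p = 0.00017, adjusted p = 0.00832, rho = -0.65, permutation p = 0.00087, adjusted p = 0.0151, and r = -0.67 without the 2 farthest libraries). The erythroid list holds 4 genes, whose summed level was 7184 to 12506 CPM in sham and 5038 to 10776 CPM in ADX, with 0 of the 4 at 0 in any library. Rora also went down with the granulocyte score (r = -0.56, rho = -0.57, permutation p = 0.00161 and 0.00134, adjusted p = 0.0209 and 0.0174, r = -0.51 without the 2 farthest) and up with that of the stria vascularis (r = 0.58, rho = 0.58, permutation p = 0.00222 and 0.00244, adjusted p = 0.0231 and 0.0254, r = 0.49).

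Rorb went up with the spiral ligament fibrocyte score (r = 0.63, rho = 0.64, permutation p = 0.00048 and 0.00063, adjusted p = 0.00832 and 0.0151, r = 0.57 without the 2 farthest) and that of the stria vascularis (r = 0.62, rho = 0.68, permutation p = 0.00032 and 0.00031, adjusted p = 0.00832 and 0.0151, r = 0.59). The part of these cells in the levels of Rora and Rorb was not tested.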

How the data were processed

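Per the labels' protocols, total RNA was made into stranded messenger RNA libraries and sequenced from 1 end on an Illumina HiSeq. Alignment with STAR 2.4.0i to build mm10 is named in the submitters' processing notes. How reads were counted, and whether by strand, is stated in no source used here. The authors deposited raw counts for each Ensembl gene and a gene length whose definition the file header leaves out. RPKM were computed here with that length and also with merged exon lengths.

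Column names gave a time 1 h earlier than the labels in 30 of 36 columns. Columns were matched by status, replicate number and the single label time that lay within 1 h, and 0 columns belonged to other samples. GENCODE M21 matched 37607 IDs (96.4%). No pair of replicates was a duplicate: their counts differed beyond sampling (chi-square over its degrees of freedom 5.03 to 20.4). The labels name no batch.

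The tests used edgeR 4.0.16 in R 4.3.3 (quasi-likelihood in its legacy form, TMM factors 0.981 to 1.03, filterByExpr over the 12 groups). The 16461 genes left out held 0.0779% of counts. A 24 h cosine per status gave rhythms, and 12 group means (24 residual degrees of freedom) gave mean and per-time differences. Differences in peak-to-trough value and peak time were Wald tests by the delta method. P-values were adjusted by Benjamini-Hochberg over all tested genes, or over genes rhythmic in both statuses for peak time, at 0.05. The functions were tested on simulated data. Log2 CPM used a prior count of 1. Intervals are at 95%. Alternatives used limma 3.58.1 (voom) and DESeq2 1.42.0, other scaling, no filter, added covariates and left-out libraries.

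The members and gene lists were chosen with earlier results of these data known. Named genes were the 4 members, Thra, the 3 most and least alike genes of each member, and up to 4 genes per list with the smallest p of shared rhythm. Some genes that this rule names are not reported here. The comparison of within-group spread and the correlations of deviations were added after seeing the data. Deviations were permuted 100000 times within groups. Sequences are RefSeq's. Protein sequences were not used here.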

Additional observations from a re-analysis of the deposited data

How the results depend on the processing

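Nr1d1 and Nr1d2 were the 2 members rhythmic in sham and in ADX under every alternative run, and 0 members were called for a difference in rhythm, amplitude, peak time, mean level or at a single time under any. The count with a shared rhythm was 2 or 3, the third being Rora. With single libraries left out, the peak-to-trough difference was -1.14 to -0.79 for Nr1d1 and -0.64 to -0.47 for Nr1d2. Other alternatives gave -1.15 to -0.99 and -0.66 to -0.56. Signs turned for 2 uncalled values: the Rora peak-to-trough difference ranged from -0.0793 to 0.000437 with each library left out (positive without replicate 1 of sham at CT12), and the Thra peak time difference was -0.119 h without the 4 libraries of highest Gh. The cause was not tested.

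Counts over all genes moved more. Genes rhythmic in ADX numbered 2120, 1411 with no filter and 1334 without replicate 3 of ADX at CT16. Mean-level calls numbered 162, 630 with DESeq2, 6 without the 2 libraries of highest osteoblast score, and 21 to 302 with single libraries left out. A difference in rhythm was called for 0 genes, for Per2 with DESeq2 or with adjustment over the genes rhythmic in both statuses, and for Cga without replicate 3 of sham at CT16.

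No sign of pairing by replicate number was seen. Deviations of same-numbered libraries had a median correlation of -0.008 (range -0.45 to 0.29), and 11 of 36 libraries correlated best with their own number. These values do not show that the libraries are unpaired. With the replicate block the counts of rhythmic members stayed 2 in sham and 2 in ADX. Of all values recomputed under alternatives other than fits with a single library left out, 1355 kept direction and call or, for counts, stayed within a set margin. Another 10 lost and 13 gained a call, 6 counts moved beyond the margin and 1 value changed sign. Rorb was the member with the fewest counts, 142 to 323 per library.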
